A study of Homo sapiens with 16 samples.

Results

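FOXM1 and MYBL2, a pair of transcription factors of the cell division programme, were followed with 8 mitotic genes that they are known to drive: AURKA, AURKB, PLK1, BUB1, CCNB1, CDC20, CENPF and MKI67. These 10 genes were taken by symbol from the 35993 gene symbols of the count table, and all 10 were among the 21297 genes that passed the filter on low counts. RNA-seq was performed on the established human bladder cancer lines 253J, J82, RT112 and TCCSUP, with the genotype of all 8 groups given as WT. Treated cells received CM-1758, a histone deacetylase (HDAC) inhibitor, for 48 h at the IC50 of their own cell line, and control cells received 0.01% DMSO as vehicle. The 4 cell lines and 2 treatments made 8 groups, each with 2 libraries (16 in total) that came from independent experiments, so p-values measure the spread between such experiments. The dose was set for each cell line separately and TCCSUP was grown in another medium (EMEM) than the other 3 cell lines (DMEM), so cell line, dose and, for TCCSUP, medium cannot be told apart.

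B-Myb, the product of MYBL2, joins the MuvB complex in S phase, and this complex then recruits FOXM1 to the promoters of genes needed for G2 and mitosis. MYBL2 itself is an E2F target that is switched on at the G1/S transition, whereas most of the 8 targets reach their highest transcript level in G2 and mitosis. In quiescent or arrested cells, the MuvB core is bound instead by an RB-related pocket protein and E2F4 as the DREAM complex, which represses the same promoters. In proliferating tumour cells, including bladder cancer, these genes are read as a proliferation signature, and MKI67 encodes the Ki-67 antigen used in pathology.

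Promoters of 5 of the genes are shown as examples, to mark letters of the elements through which this programme is known to be read. RefSeq promoter sequences (GRCh38.p14) were found for 8 of the 10 genes, with AURKA and FOXM1 not matched, and the 250 bases before the annotated start were searched on both strands. The letters searched were CCAAT, the box bound by NF-Y, TTTGAA with its variants TTTAAA and (the rarest) TTCGAA, which are forms of the cell cycle genes homology region (CHR) bound by MuvB, further AACGG as the core of the MYB site and GGCGGGA as a core of the E2F site. The printed windows are chr16:23678639-23678888 (plus strand) for PLK1, chr5:69166900-69167149 (plus strand) for CCNB1, chr1:43358731-43358980 (plus strand) for CDC20, chr10:128126424-128126673 (minus strand) for MKI67 and chr20:43666864-43667113 (plus strand) for MYBL2. Each is written 5′ to 3′ on the strand of its gene and ends at the base before the start, with every match to the searched letters in capitals.
PLK1: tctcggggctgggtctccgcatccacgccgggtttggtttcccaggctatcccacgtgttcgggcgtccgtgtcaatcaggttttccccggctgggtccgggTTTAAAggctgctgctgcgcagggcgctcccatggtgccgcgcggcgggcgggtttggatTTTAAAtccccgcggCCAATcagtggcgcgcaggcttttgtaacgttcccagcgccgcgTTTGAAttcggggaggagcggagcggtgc
CCNB1: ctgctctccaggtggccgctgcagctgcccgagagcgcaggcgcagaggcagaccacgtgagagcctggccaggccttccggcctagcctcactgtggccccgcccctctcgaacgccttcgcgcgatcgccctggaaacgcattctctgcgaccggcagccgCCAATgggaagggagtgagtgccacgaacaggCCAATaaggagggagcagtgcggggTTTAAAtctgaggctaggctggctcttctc
CDC20: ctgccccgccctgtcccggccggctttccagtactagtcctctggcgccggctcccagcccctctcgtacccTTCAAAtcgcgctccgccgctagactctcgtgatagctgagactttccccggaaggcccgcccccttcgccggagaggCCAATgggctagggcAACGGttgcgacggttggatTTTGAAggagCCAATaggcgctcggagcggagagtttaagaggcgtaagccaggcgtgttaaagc
MKI67: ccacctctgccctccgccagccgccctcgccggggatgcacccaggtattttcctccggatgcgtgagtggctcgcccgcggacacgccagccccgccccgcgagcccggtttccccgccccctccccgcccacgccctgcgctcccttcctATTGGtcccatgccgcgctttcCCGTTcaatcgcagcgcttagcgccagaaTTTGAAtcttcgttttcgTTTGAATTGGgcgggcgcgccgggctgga
MYBL2: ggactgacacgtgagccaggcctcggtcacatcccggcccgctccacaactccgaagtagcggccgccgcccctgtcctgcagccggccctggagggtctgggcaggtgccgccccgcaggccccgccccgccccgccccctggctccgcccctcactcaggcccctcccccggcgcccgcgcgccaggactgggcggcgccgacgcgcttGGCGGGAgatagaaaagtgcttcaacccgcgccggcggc
The CCAAT letters were in the window of 7 of the 8 genes, all but MYBL2, and in 32% of the 35116 RefSeq promoter windows. In CCNB1 a CCAAT lay 87 to 83 and another 55 to 51 bases before the start, and a TTTAAA 30 to 25 bases before it. In PLK1 a TTTGAA lay 29 to 24 bases before the start, downstream of a CCAAT at 73 to 69, with TTTAAA at 148 to 143 and 88 to 83. CDC20 had a CCAAT at 100 to 96 and another at 55 to 51 bases before its start. Between them lay a TTTGAA at 65 to 60 bases, and a reverse-strand TTTGAA lay at 178 to 173. In MKI67 a TTTGAA at 29 to 24 bases shared 1 base with a reverse-strand CCAAT at 24 to 20 bases before the start. A further TTTGAA lay at 47 to 42 and a further reverse-strand CCAAT at 98 to 94. One of the 3 CHR forms was found in 5 of the 8 genes (CCNB1, CDC20, CENPF, MKI67 and PLK1) and in 22.8% of all windows. The MYB core was in 4 of the 8 (AURKB, BUB1, CDC20 and MKI67) against 16.5% of all windows. The E2F core was in MYBL2 only, 39 to 33 bases before the start. This 1 of 8 is near the 13.5% of all windows, and the MYBL2 window held none of the other letters searched. TTTGAA alone was in 13.3%, TTTAAA in 11.3% and TTCGAA in 1.19% of all windows. These matches describe the letters of the windows, and no binding was measured here.

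Total counts per library ran from 27655401 to 32537104 in control and from 22506431 to 31547585 in treated cells. Levels are given as CPM, a gene's reads scaled to the same normalised library size. In each sentence on a gene, libraries are in replicate order, which is replicates 2 and 3 for 253J control, 1 and 3 for 253J treated and both J82 groups, and 1 and 2 for RT112 and TCCSUP. The J82 pairs agreed least, with a chi-square per degree of freedom over the tested genes of 57.4 in control and 38.5 in treated cells against 9.51 to 17.5 in the other 6 pairs. In treated J82 cells all 10 genes were higher in replicate 1 than in replicate 3, by a median of 0.66 on the log2 scale. Keratins KRT8, KRT18 and KRT19 were detected in all 4 cell lines, but of the 15 urothelial and epithelial markers 11 were above 3 counts in some library of 253J and of J82, 13 in TCCSUP and 14 in RT112. Of the uroplakins, defining proteins of mature urothelium, UPK1B was the highest in RT112, with mean levels of 1410 CPM in control and 351 CPM in treated cells. It was at most 1.35 CPM in the other cell lines. UPK1A was at 5.04 CPM in control and 0.251 CPM in treated RT112 and at most 0.557 CPM in the other cell lines. UPK3A had 0 counts in every library of 253J, J82 and RT112, and UPK2 in every library of 253J and J82. UPK3B was detected in all 4 cell lines, with mean levels of 73.4 CPM in control and 24.3 CPM in treated RT112 and at most 1.14 CPM in the others. KRT20, a keratin of superficial urothelium, was called higher in all 4 cell lines, from 0 CPM in control to 9.44 CPM in 253J, 0.264 CPM in J82 and 3.88 CPM in TCCSUP and from 6.52 to 17.3 CPM in RT112. KRT5, a basal keratin, was at 277 CPM in control and 152 CPM in treated RT112 and at 0 counts in 253J and J82, and KRT7 was at 1710 and 485 CPM in J82 and 1850 and 985 CPM in RT112. The summed CPM of these markers was 7710 to 8120 in control and 5330 to 6140 in treated RT112, and 1320 to 1450 against 504 to 579 in TCCSUP. In 253J it was 3020 to 4150 in control and 1840 to 2340 in treated cells, and in J82 5970 to 8100 and 6950 to 7860. The 10 leukocyte, endothelial and fibroblast markers summed to at most 4.96 CPM in 253J and 198 CPM in J82, with 1330 to 1370 CPM in control and 820 to 890 CPM in treated RT112 and 1100 to 1200 and 230 to 259 CPM in TCCSUP, most of it LUM, a matrix proteoglycan gene. Mean levels of PTPRC, which marks leukocytes, were at most 9.58 CPM and those of PDGFRA, a fibroblast marker, at most 8.82 CPM. PDGFRB was at 92.9 CPM in control and 25 CPM in treated TCCSUP. In J82 it was at 38.8 CPM in control and 43.7 CPM in treated cells, and it was at most 0.502 CPM in 253J and RT112. CD3E, a defining T cell marker, was at 0 counts in every J82 and RT112 library. The part of these levels in the results was not tested.

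With CM-1758, all 10 genes were called lower in 253J, J82 and TCCSUP, whereas in RT112 only the regulators FOXM1 and MYBL2 were. A gene was called lower at a negative log2 fold change if its p in the quasi-likelihood test of edgeR, adjusted by Benjamini-Hochberg over all tested genes, was under 0.05. In 253J 10 of the 10 genes were called lower, against 22.4% of all tested genes, and their median log2 fold change was -2.45. J82 also had 10 of 10 lower, against 18.5% of all genes, with a median of -1.66. TCCSUP had 10 of 10 lower, against 22.1% of all genes, with a median of -2.34. RT112 had 2 of 10 lower, a share near the 20.2% of all genes, with a median of -0.35. In RT112, FOXM1 (adjusted p = 0.0249) and AURKB (adjusted p = 0.07) lay on either side of the limit. A difference between their falls was not tested. Over all tested genes the median was 0.1 in 253J, 0.2 in TCCSUP, 0.05 in J82 and 0.12 in RT112. RNA came from whole cultures, so a changed share of cells in each cycle phase and less transcript per cell cannot be told apart. With the same treatment, flow cytometry in the paper gave a higher percentage of G2/M cells in J82 and, more evidently, in RT112. It gave a lower percentage of S phase cells in 253J, J82 and TCCSUP, and of G0/G1 cells in 253J and RT112. The part of cell cycle phase in these falls was not tested. Both treated libraries lay below both control libraries for 10 genes in 253J, 10 in J82 and 10 in TCCSUP, against 32.1%, 27.9% and 33.1% of all genes, and for 7 genes in RT112, against 32.5%. Of the 8 targets, 0 passed in RT112 by edgeR's test over all cell lines and by DESeq2 over all cell lines, 2 at an unadjusted p under 0.05, 2 by edgeR on RT112 alone and 3 by DESeq2 on RT112 alone. The count of 2 genes was 1 without RT112 control replicate 2 or treated replicate 2 and 4 without RT112 treated replicate 1. At the stricter limits used in the study, a log2 fold change below -2 and an adjusted p under 0.01, 9 genes were lower in 253J (3.5% of all genes), 8 in TCCSUP (3.31%), 2 in J82 (1.24%) and 0 in RT112 (1.39%). The largest fall in RT112 was -1.20 (MYBL2), short of the fold limit, so no rule on p could change the count of 0 there. DESeq2 also gave 0. The pair left in J82 at these limits was again FOXM1 and MYBL2.

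**Figure D1:**
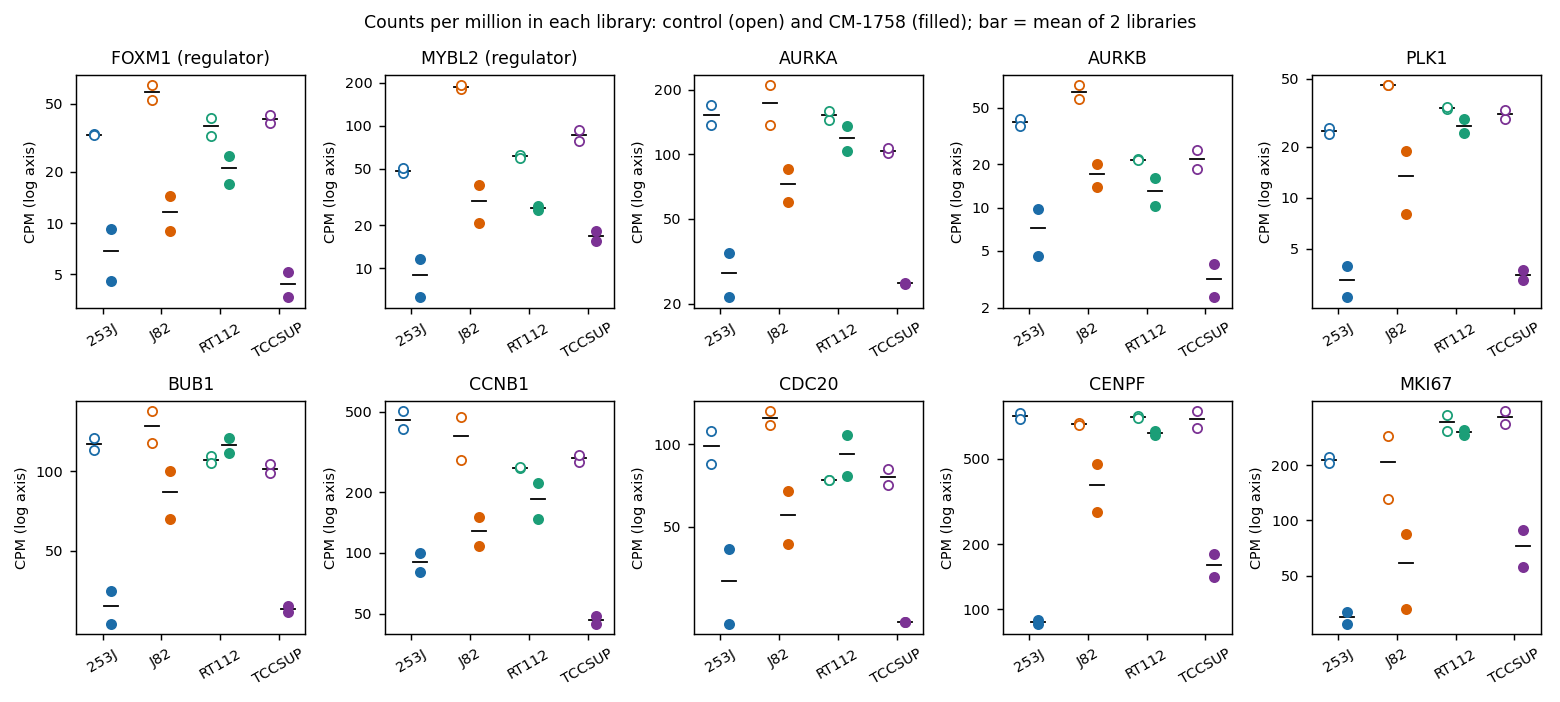
Normalised level (CPM) of each of the 10 genes in every library, on a logarithmic axis with its own range in each panel, for the 4 cell lines; open points are control libraries, filled points CM-1758 libraries, and a bar is the mean of 2 libraries. In 253J, J82 and TCCSUP the filled points lie below the open ones in all panels, whereas in RT112 they lie above them for BUB1 and CDC20 and overlap them for MKI67.

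FOXM1 encodes the forkhead factor that activates G2 and mitotic genes. In 253J, FOXM1 stood at 33.2 and 32.8 CPM in control and at 9.19 and 4.59 CPM in treated cells. In J82 it stood at 64.5 and 53 CPM in control and at 14.4 and 8.97 CPM after treatment. The drop was deepest in TCCSUP, from 38.6 and 42.9 CPM to 3.67 and 5.15 CPM. RT112 kept the most FOXM1, with 32.6 and 41.6 CPM in control and 24.9 and 17 CPM in treated cells. The groups did not overlap in any of the 4 cell lines, but the treated RT112 libraries remained above every treated library of the other 3. On the log2 scale, FOXM1 fell by 2.27 in 253J (standard error, SE, 0.30, adjusted p = 1.71e-05). The same test gave -2.33 in J82 (SE 0.29, adjusted p = 1.85e-05) and -3.21 in TCCSUP (SE 0.32, adjusted p = 1.13e-06), where 10.8% of the control level was left. In RT112 the log2 fold change was -0.82 (SE 0.28, 95% interval -1.42 to -0.22, adjusted p = 0.0249), with 56.5% left. This RT112 call was lost without control replicate 2 (-0.64, adjusted p = 0.158), without treated replicate 2 (-0.58, adjusted p = 0.203) and with scaling by library size alone (-0.68, adjusted p = 0.0685). RHNO1, the neighbour that shares the FOXM1 promoter in the opposite orientation and encodes a DNA damage response protein, fell in all 4 cell lines. Its log2 fold changes were -1.29 in 253J (adjusted p = 9.88e-05), -1.36 in J82 (adjusted p = 0.000109), -0.89 in RT112 (adjusted p = 0.00213) and -1.36 in TCCSUP (adjusted p = 6.48e-05). For RHNO1 the RT112 effect exceeded the mean effect of the other 3 cell lines by 0.45 (adjusted p = 0.194), which did not pass the test.

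MYBL2 showed its highest control level in J82, at 181 and 193 CPM, and was at 38.3 and 20.8 CPM there after treatment. It stood at 46.9 and 50.1 CPM in control and 11.6 and 6.24 CPM in treated 253J. TCCSUP had 78.1 and 93 CPM in control and 15.5 and 18.1 CPM in treated cells. The lowest control library of any cell line still held more MYBL2 than the highest treated one. In RT112, MYBL2 stood at 62.2 and 59.7 CPM in control and at 25.8 and 27.2 CPM in treated cells. The replicates of RT112 were close together in both groups, and the groups did not overlap in any cell line. The log2 fold changes of MYBL2 were -2.45 in 253J (SE 0.27, adjusted p = 3.32e-06) and -2.66 in J82 (SE 0.26, adjusted p = 2.22e-06). They were -2.35 in TCCSUP (SE 0.27, adjusted p = 4.26e-06) and -1.20 in RT112 (SE 0.26, 95% interval -1.75 to -0.66, adjusted p = 0.00137). MYBL2 was thus left at 15.8% to 19.7% of the control level in 253J, J82 and TCCSUP and at 43.4% in RT112. Its RT112 call held without any single library. FOXM1 and MYBL2 were the only members called lower in all 4 cell lines, which was true of 6.01% of all tested genes.

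The kinases of mitotic entry and the spindle fell in 253J, J82 and TCCSUP, and none of them passed the test in RT112. PLK1, the Polo-like kinase of mitotic entry and spindle assembly, stood in 253J at 25.6 and 23.6 CPM in control and 3.96 and 2.6 CPM in treated cells. TCCSUP gave nearly the same picture for PLK1, with 29.1 and 32.8 CPM in control and 3.29 and 3.78 CPM in treated cells. In J82 its levels were 45.9 and 45.8 CPM in control and 18.8 and 8.06 CPM in treated cells. Treated RT112 cells held 29.2 and 23.9 CPM of PLK1 against 33.1 and 34.3 CPM in control, so the groups lay apart by a narrow gap. PLK1 log2 fold changes were -2.91 in 253J (SE 0.31, adjusted p = 2.13e-06), -1.77 in J82 (SE 0.28, adjusted p = 0.00013) and -3.13 in TCCSUP (SE 0.31, adjusted p = 1.16e-06). The PLK1 value in RT112 was -0.34 (SE 0.27, 95% interval -0.91 to 0.23, adjusted p = 0.314).

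AURKA encodes Aurora A, the kinase of centrosomes and spindle poles. Its control and treated levels were 169 and 137 against 34.5 and 21.5 CPM in 253J. In J82 they were 137 and 210 against 85.4 and 59.8 CPM, the widest control pair of this gene. TCCSUP had 101 and 107 CPM in control and 25 and 24.9 CPM in treated cells. RT112 had 145 and 159 CPM in control and 135 and 103 CPM in treated cells, so that the higher treated library came close to the lower control library. AURKA log2 fold changes were -2.46 in 253J (SE 0.25, adjusted p = 1.61e-06), -1.26 in J82 (SE 0.24, adjusted p = 0.000701), -2.06 in TCCSUP (SE 0.25, adjusted p = 8.37e-06) and -0.35 in RT112 (SE 0.24, 95% interval -0.86 to 0.16, adjusted p = 0.239). AURKB encodes Aurora B, the catalytic subunit of the chromosomal passenger complex. Its levels were 41.9 and 37.1 CPM in control and 9.74 and 4.62 CPM in treated 253J. J82 had 57 and 71.7 CPM in control and 20.2 and 13.9 CPM in treated cells, and TCCSUP 18.7 and 25.1 against 2.36 and 4.01 CPM. In RT112, AURKB was at 21.8 and 21.4 CPM in control and 16 and 10.3 CPM in treated cells, with both treated libraries lower. AURKB log2 fold changes were -2.47 in 253J (SE 0.32, adjusted p = 1.53e-05), -1.92 in J82 (SE 0.31, adjusted p = 0.00016) and -2.78 in TCCSUP (SE 0.35, adjusted p = 1.04e-05). In RT112 the AURKB value of -0.71 (SE 0.31, 95% interval -1.37 to -0.05, adjusted p = 0.07) missed the limit in the fit over all cell lines, and passed it without treated replicate 1 (-1.06, adjusted p = 0.0401).

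BUB1, a kinase of the spindle assembly checkpoint, was in J82 the target with the smallest fall. Its levels in 253J were 133 and 120 CPM in control and 35.3 and 26.5 CPM in treated cells. In J82 they were 128 and 168 against 100 and 66 CPM, and in TCCSUP 98.4 and 106 against 30.9 and 29.4 CPM. RT112 went the other way, with 114 and 107 CPM in control and 133 and 117 CPM in treated cells. In that cell line both treated libraries lay above both control libraries, by less than the test could call. BUB1 log2 fold changes were -2.03 in 253J (SE 0.20, adjusted p = 1.07e-06), -0.83 in J82 (SE 0.19, adjusted p = 0.00274), -1.76 in TCCSUP (SE 0.20, adjusted p = 4.26e-06) and 0.18 in RT112 (SE 0.19, 95% interval -0.23 to 0.59, adjusted p = 0.468).

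Cyclin B1 and CDC20 act at opposite ends of mitosis, the first as the partner of CDK1 at entry and the second as the activator of the anaphase-promoting complex that destroys cyclin B1. CCNB1 stood at 502 and 413 CPM in control and 99.5 and 80.2 CPM in treated 253J. It was at 290 and 471 CPM in control and 150 and 108 CPM in treated J82, and at 282 and 307 against 44.7 and 48.5 CPM in TCCSUP. In RT112, 263 and 265 CPM in control compared with 223 and 148 CPM in treated cells, where treated replicate 2 was clearly the lower. CCNB1 log2 fold changes were -2.35 in 253J (SE 0.25, adjusted p = 1.9e-06), -1.56 in J82 (SE 0.24, adjusted p = 0.000113) and -2.66 in TCCSUP (SE 0.25, adjusted p = 7.51e-07). The CCNB1 value in RT112 was -0.51 (SE 0.24, 95% interval -1.01 to 0, adjusted p = 0.0905), and without treated replicate 1 it was -0.83 (adjusted p = 0.0288). CDC20 levels were 112 and 85.2 CPM in control and 41.5 and 22.2 CPM in treated 253J. In J82 they were 118 and 132 against 67.4 and 43.2 CPM, and in TCCSUP 71.2 and 81.3 against 22.4 and 22.4 CPM. CDC20 was the other gene with higher treated libraries in RT112, at 73.9 and 74.3 CPM in control and 108 and 76.7 CPM in treated cells. One treated library lay just above the control pair and the other well above it. CDC20 log2 fold changes were -1.63 in 253J (SE 0.27, adjusted p = 0.000116), -1.18 in J82 (SE 0.26, adjusted p = 0.00204), -1.77 in TCCSUP (SE 0.27, adjusted p = 6.86e-05) and 0.32 in RT112 (SE 0.26, 95% interval -0.24 to 0.87, adjusted p = 0.335).

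CENPF, a large kinetochore protein of late G2 and mitosis, had almost the same control level in all 4 cell lines and differed between all of them after treatment. It stood at 811 and 767 CPM in control and 85.7 and 89 CPM in treated 253J, and at 829 and 697 against 141 and 181 CPM in TCCSUP. Treated J82 libraries held 473 and 282 CPM against 736 and 716 CPM in control. Treated RT112 libraries held 669 and 645 CPM against 786 and 769 CPM in control, a small gap with tight replicates. CENPF log2 fold changes were -3.17 in 253J (SE 0.22, adjusted p = 4.55e-08), where 11.1% was left, -0.94 in J82 (SE 0.20, adjusted p = 0.00143), -2.25 in TCCSUP (SE 0.21, adjusted p = 6.02e-07) and -0.24 in RT112 (SE 0.20, 95% interval -0.67 to 0.18, adjusted p = 0.329). MKI67 encodes Ki-67, which coats mitotic chromosomes. Its levels were 222 and 204 CPM in control and 27.5 and 31.9 CPM in treated 253J, and 335 and 391 against 56.1 and 88.6 CPM in TCCSUP. In J82, MKI67 was at 286 and 131 CPM in control and 83.9 and 33 CPM in treated cells, the least repeatable of the 10 genes. The J82 replicates differed by 1.13 in control and 1.34 in treated cells on the log2 scale, with replicate 1 the higher in both. In RT112, MKI67 was at 307 and 374 CPM in control and 291 and 310 CPM in treated cells, and the groups overlapped. MKI67 log2 fold changes were -2.84 in 253J (SE 0.39, adjusted p = 2.58e-05), -1.84 in J82 (SE 0.38, adjusted p = 0.00117), -2.33 in TCCSUP (SE 0.38, adjusted p = 0.000136) and -0.18 in RT112 (SE 0.36, 95% interval -0.96 to 0.60, adjusted p = 0.73). The MKI67 value in J82 was -2.58 without treated replicate 1 and -1.17 without control replicate 1, and both remained past the limit, whereas DESeq2 on J82 alone lost the call (-1.82, adjusted p = 0.0704).

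**Figure D2:**
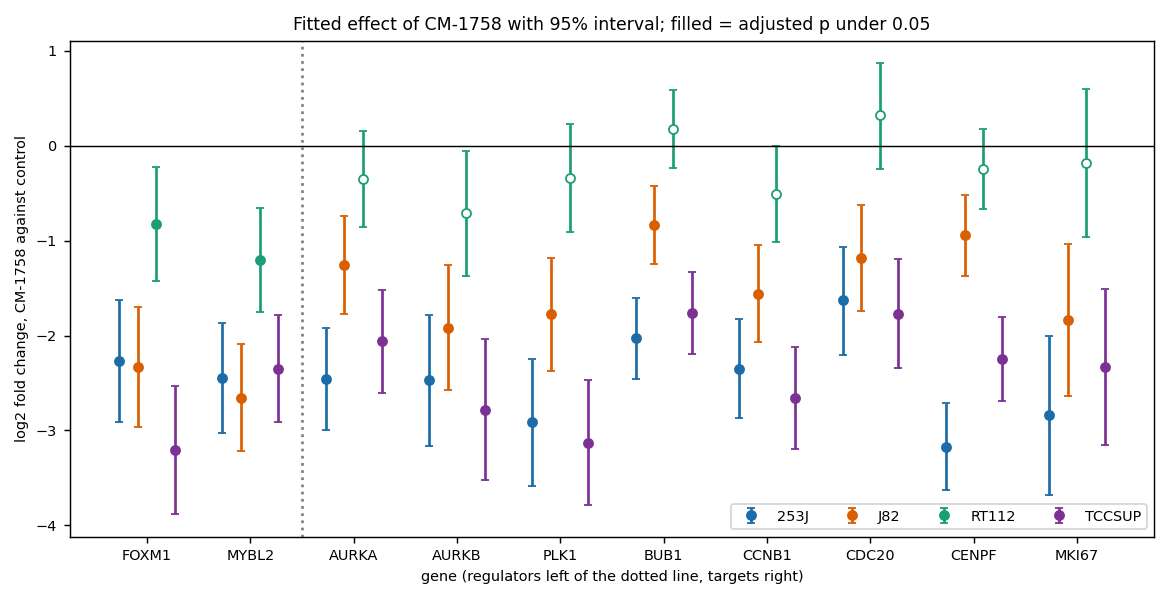
Fitted log2 fold change (CM-1758 against control) of each gene in each cell line with its 95% interval, regulators left of the dotted line and targets right; filled points have an adjusted p under 0.05. RT112 is called for FOXM1 (-0.82) and MYBL2 (-1.20) and for none of the 8 targets, whose values run from -0.71 for AURKB to 0.32 for CDC20.

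The next comparison asked whether the effect of CM-1758 in RT112 differed from that in the other cell lines, which is a test of the difference itself. The effect differed between the 4 cell lines for 10 of the 10 genes, against 51.9% of all tested genes. Subtracting the mean effect of the other 3 cell lines from the RT112 effect gave a positive difference, a weaker fall, that passed the test for all 10 genes, against 11.8% of all tested genes. The 10 genes had been grouped with their weak fall in RT112 already known from these libraries, so these counts and p-values describe its size and spread and are not independent evidence of it. The median of these differences was 1.75 on the log2 scale, and that over all tested genes -0.05. PLK1 had the largest difference, 2.26 (SE 0.32, adjusted p = 0.000123), followed by MKI67 with 2.15 (SE 0.43, adjusted p = 0.00182). CENPF differed by 1.88 (SE 0.23, adjusted p = 3.46e-05) and CDC20 by 1.84 (adjusted p = 0.000411). FOXM1 had a difference of 1.78 (SE 0.33, 95% interval 1.07 to 2.48, adjusted p = 0.00106). MYBL2 had the smallest, 1.28 (SE 0.30, 95% interval 0.65 to 1.91, adjusted p = 0.00494). Thus the regulators, though lower in RT112, also fell less there than in the other cell lines. BUB1 differed by 1.72 (adjusted p = 5.6e-05), AURKB by 1.68 (adjusted p = 0.0031), CCNB1 by 1.68 (adjusted p = 0.00039) and AURKA by 1.57 (adjusted p = 0.000733). Against 253J alone the fall in RT112 was weaker for 10 genes (16.3% of all genes, median difference 2.03), and against TCCSUP alone for 10 genes (14.1% of all genes, median difference 2.08). J82 was the nearest cell line, with a weaker fall in RT112 for 7 genes (11.2% of all genes, median difference 1.32). The 3 that did not pass against J82 were AURKA (0.91, 95% interval 0.19 to 1.63, adjusted p = 0.0694), AURKB (1.20, 95% interval 0.29 to 2.12, adjusted p = 0.0582) and CENPF (0.70, 95% interval 0.10 to 1.30, adjusted p = 0.0909). These intervals lie above 0, and the adjustment over all genes takes them past the limit. The comparisons of RT112 with each cell line share the RT112 libraries.

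**Figure D3:**
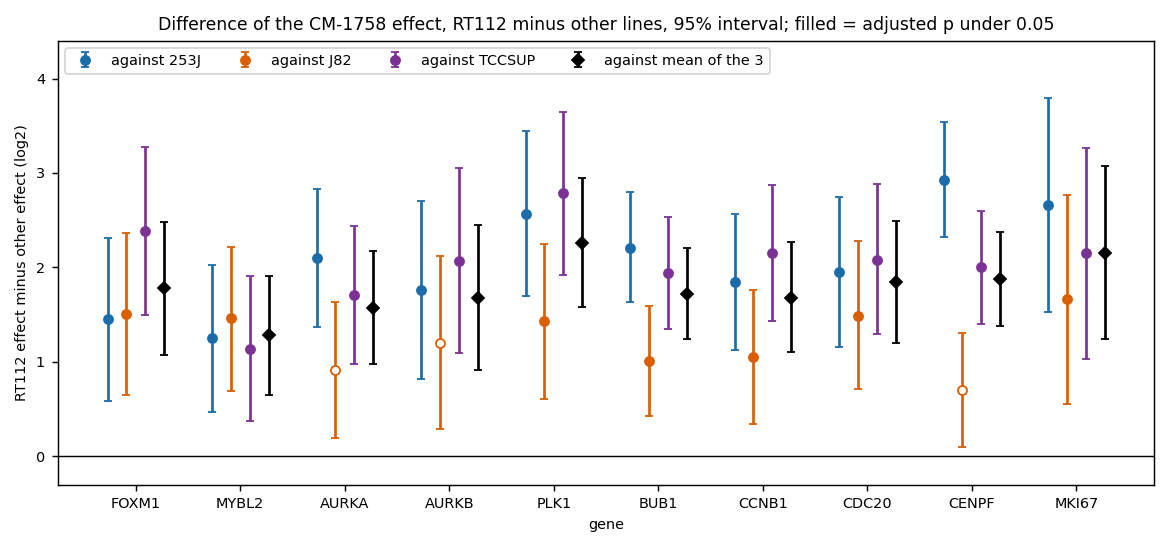
Difference of the CM-1758 effect, RT112 minus each other cell line (circles) and minus the mean of the other 3 (diamonds), in log2 units with 95% intervals; filled symbols have an adjusted p under 0.05. All differences lie above 0, and the open symbols are AURKA, AURKB and CENPF against J82.

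The fall of the regulators was then set beside that of their targets. In J82, MYBL2 (-2.66) and FOXM1 (-2.33) had the largest falls of the 10 genes, and the median of the 8 targets was -1.41, with a range from -1.92 (AURKB) to -0.83 (BUB1). In RT112 they again ranked first and second, with the targets at a median of -0.29 and a range from -0.71 (AURKB) to 0.32 (CDC20). There AURKB (SE 0.31) was near FOXM1 (-0.82, SE 0.28). In 253J they ranked 6 (MYBL2) and 8 (FOXM1) of 10, within the range of the targets from -3.17 (CENPF) to -1.63 (CDC20), whose median was -2.46. In TCCSUP, FOXM1 ranked 1 and MYBL2 5, and the targets ran from -3.13 (PLK1) to -1.76 (BUB1) with a median of -2.29. A difference taken within each library, the log2 CPM of a regulator minus the mean log2 CPM of the 8 targets, does not depend on how libraries are scaled. Its absolute value also reflects transcript length, so that only its change is read here, with no test because the genes were chosen with earlier results known.

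For FOXM1 this difference was -1.26 and -1.67 in control and -2.42 and -2.34 in treated J82. It was -1.93 and -1.62 in control and -2.25 and -2.49 in treated RT112, and -1.57 and -1.55 against -2.54 and -2.31 in TCCSUP. In these 3 cell lines both treated libraries lay below both control libraries, with mean changes of -0.91 in J82, -0.60 in RT112 and -0.86 in TCCSUP beside standard deviations between replicates of 0.21, 0.19 and 0.12. By these means of 2 libraries, FOXM1 declined by more than the mean of its targets in J82, RT112 and TCCSUP, which was not tested. In TCCSUP the fall of 1 target, PLK1 (-3.13), was near that of FOXM1 (-3.21). In 253J it was -2.17 and -1.98 in control and -1.64 and -2.17 in treated cells, a change of 0.17 with a standard deviation of 0.28 and overlapping groups. For MYBL2 the difference was 0.22 and 0.18 in control and -1.02 and -1.14 in treated J82. In RT112 it was -0.99 and -1.09 in control and -2.2 and -1.81 in treated cells. The changes of -1.28 (standard deviation 0.06) and -0.96 (standard deviation 0.20) left the groups apart in both cell lines. The MYBL2 difference kept its level in 253J, where it was -1.67 and -1.37 in control and -1.31 and -1.73 in treated cells, and in TCCSUP, where it was -0.56 and -0.44 against -0.48 and -0.51. The mean change was 0 in both, with overlapping groups. MYBL2 minus FOXM1 was 1.02 and 1.11 in control and 2.06 and 1.8 in treated TCCSUP, a mean change of 0.86 (standard deviation 0.14) with the treated libraries higher. It changed the other way in 253J (-0.17, standard deviation 0.08) and J82 (-0.37, standard deviation 0.21), where the treated libraries were lower, and in RT112 the groups overlapped (-0.36, standard deviation 0.38).

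**Figure D4:**
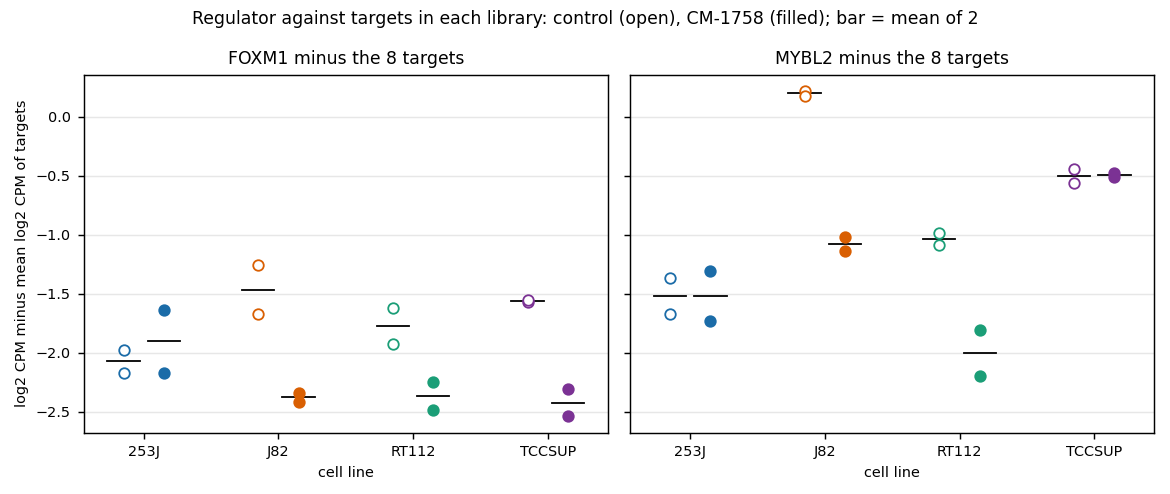
Log2 CPM of FOXM1 (left) and MYBL2 (right) minus the mean log2 CPM of the 8 targets in each library, for control (open) and CM-1758 (filled) libraries; a bar is the mean of 2 libraries. For FOXM1 the filled points lie below the open ones in J82, RT112 and TCCSUP, and for MYBL2 in J82 and RT112.

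Levels were next compared between cell lines within each treatment. Of 60 differences in control cells (10 genes, 6 pairs of cell lines), 16 passed the test, a share below that of all tested genes, 52%. Of the 60 differences in treated cells, 50 passed, against 54.1% of all tested genes. The control count was 10 without 253J control replicate 2 and 27 without J82 treated replicate 3. In control cells the highest cell line exceeded the lowest by 1.09-fold for CENPF to 3.85-fold for MYBL2, and in treated cells by 3.32-fold for MYBL2 to 10.1-fold for MKI67. FOXM1 in control ran from J82 through TCCSUP and RT112 to 253J, with no neighbours in that order differing past the limit and J82 above 253J by 0.83 on the log2 scale (adjusted p = 0.0195). After treatment FOXM1 ran from RT112 through J82 and 253J to TCCSUP. Its log2 level in treated RT112 exceeded that in TCCSUP by 2.25 (adjusted p = 2.82e-05), while 253J and TCCSUP did not differ past the limit (0.64, adjusted p = 0.109). MYBL2 in control had the same order as FOXM1, with J82 above TCCSUP by 1.13 on the log2 scale (adjusted p = 0.00166) and the lower neighbours not past the limit. In treated cells MYBL2 was highest in J82 and RT112, which did not differ past the limit (0.16, adjusted p = 0.636), and lowest in 253J. CENPF passed in 0 of 6 control pairs by edgeR's test, by DESeq2 and at an unadjusted p under 0.05. MKI67 passed in 0 of 6 control pairs by edgeR's test and in 1 both by DESeq2 and at an unadjusted p under 0.05. In treated cells CENPF passed in 6 of 6 pairs, in the order RT112, J82, TCCSUP, 253J. RT112 had the highest treated level for 8 of the 10 genes, the exceptions being AURKB and MYBL2, which were highest in J82. These genes were grouped with their weak fall in RT112 already known. The high treated levels there, and the treated differences that involve RT112, follow in part from that choice and are not independent evidence.

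To place these genes in their pathway, lists of related genes were counted in the same fit. Of 45 other G2 and mitotic genes, 43 were lower in 253J (22.4% of all tested genes, median log2 fold change of the list -2.3), 39 in J82 (18.5%, median -1.01) and 43 in TCCSUP (22.1%, median -2.17). In RT112 10 of the 45 were lower (20.2% of all tested genes, median -0.27), a share near that of all genes. In RT112 the fall was weaker than the mean of the other 3 cell lines for 42 of the 45 (11.8% of all tested genes), and stronger for 0 by edgeR's test and by DESeq2 and for 1 at an unadjusted p under 0.05, with a median difference of 1.6. This list was also chosen with earlier results of these data known, so its counts are not independent evidence of a weaker fall. KIF20A, the kinesin of cytokinesis, fell in all 4 cell lines, with log2 fold changes of -3.63 in 253J, -2.21 in J82, -4.04 in TCCSUP and -1.49 in RT112 (adjusted p = 0.000182 in RT112). GTSE1, a G2 and S phase microtubule regulator, gave -2.95 in 253J, -1.97 in J82, -2.87 in TCCSUP and -0.79 in RT112 (adjusted p = 0.0256 in RT112). CDC25B, the phosphatase that activates CDK1 before mitosis, rose in RT112 (1.11, adjusted p = 8.36e-05) and fell in 253J (-0.51), J82 (-0.95) and TCCSUP (-1.08). CKS2, a CDK-binding subunit, rose in 253J (2.72, adjusted p = 9.43e-08) and did not pass elsewhere.

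The replication genes of G1/S, controlled by E2F, were ordered differently. Of 19 such genes, 17 were lower in 253J (22.4% of all tested genes, median of the list -1.82), 16 in RT112 (20.2%, median -1.17) and 15 in J82 (18.5%, median -0.72). In TCCSUP 3 of the 19 were lower (22.1% of all tested genes) and 5 higher (32%), both below the share of all genes, with a median of -0.05 that was 0.26 with library size scaling alone. CDC45, a helicase subunit, gave -2.21 in 253J, -1.33 in RT112, -1.31 in J82 and -0.64 in TCCSUP, all past the limit. MCM7, of the replicative helicase ring, gave -2.29 in 253J, -1.56 in RT112, -1.01 in J82 and -0.47 in TCCSUP, also all past it. CCNE1, the cyclin of G1/S, rose in TCCSUP (1.03, adjusted p = 1.8e-05) and fell in RT112 (-0.45, adjusted p = 0.0139). GINS4, of the GINS complex, fell in 253J (-0.81) and rose in J82 (0.91), RT112 (0.69) and TCCSUP (0.5). In RT112, therefore, most replication genes fell where the mitotic targets did not pass, and in TCCSUP the mitotic targets fell where most replication genes did not pass. The mean log2 CPM of the replication genes minus that of the 8 targets was -0.66 and -0.73 in control and -1.62 and -1.43 in treated RT112. In TCCSUP it was -0.9 and -0.94 in control and 1.54 and 1.33 in treated libraries. The mean changes were -0.83 in RT112, 0.94 in 253J, 0.84 in J82 and 2.35 in TCCSUP, a comparison added after the values were seen and given without a test. MYBL2 minus the replication genes changed by -0.13 in RT112 and by -0.94 in 253J, -2.12 in J82 and -2.35 in TCCSUP.

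**Figure D5:**
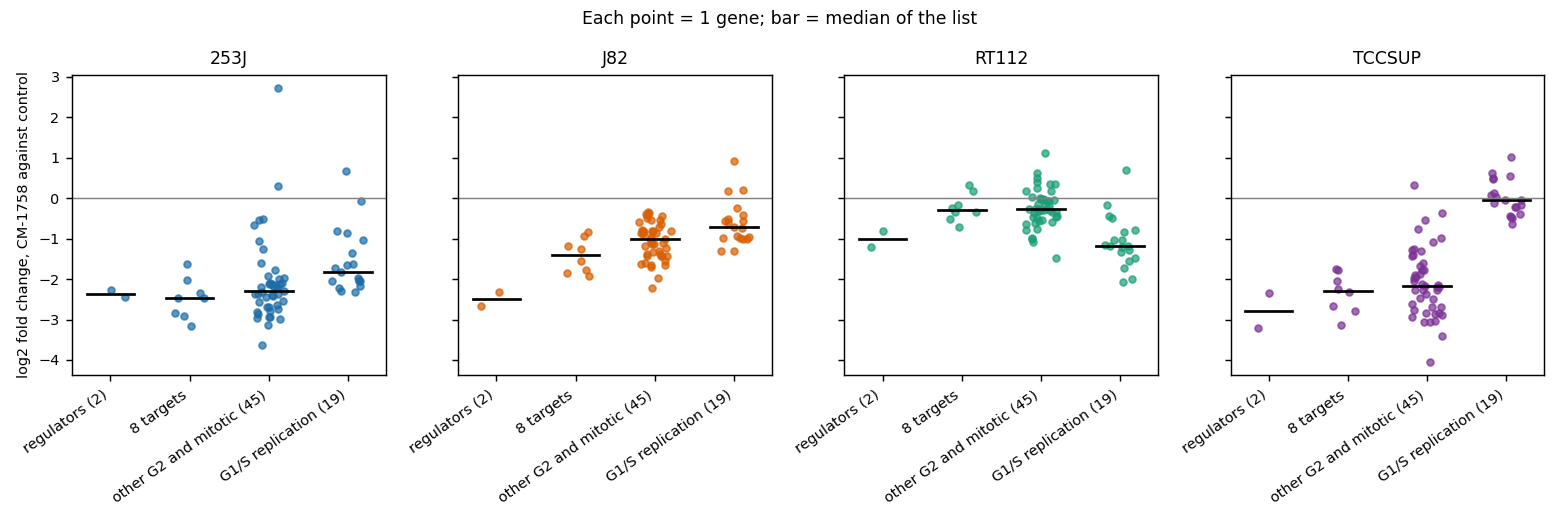
Log2 fold change (CM-1758 against control) of the 2 regulators, the 8 targets, 45 other G2 and mitotic genes and 19 replication genes of G1/S in each cell line; each point is a gene and the bar is the median of its list. In RT112 the replication genes (median -1.17) lie below both mitotic lists (-0.29 and -0.27), and in TCCSUP they lie above them (-0.05 against -2.29 and -2.17).

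Among 12 subunits of MuvB, DREAM and related MYB factors, 6 were lower and 3 higher in 253J, 4 and 1 in J82, 5 and 2 in RT112 and 5 and 3 in TCCSUP. Over all tested genes, 18.5% to 22.4% were lower and 24% to 32% higher in a cell line, so the higher counts were at or below the share of all genes. LIN9, a core MuvB subunit, fell in all 4 cell lines, with -1.74 in 253J, -1.27 in TCCSUP, -1.25 in J82 and -0.64 in RT112 (adjusted p = 0.0307 in RT112). TFDP1, the E2F dimer partner, gave -1.4 in J82, -1.15 in RT112, -1 in 253J and -0.76 in TCCSUP, all past the limit. LIN37, another MuvB subunit, rose in 253J (1.26), RT112 (0.71) and TCCSUP (0.86) and did not pass in J82 (0.14). TFDP2, a second dimer partner, rose in J82 (0.99) and TCCSUP (0.84) and did not pass in 253J (-0.15) or RT112 (0.33). Of the 7 genes in the list of E2F factors and RB1, 5 were lower and 1 higher in 253J, 4 and 1 in RT112, 3 and 0 in J82 and 3 and 2 in TCCSUP, against the same shares of all genes. The count of 0 higher in J82 by edgeR was also 0 at an unadjusted p under 0.05 and by DESeq2. E2F1 fell in 253J (-2.38), RT112 (-1.6) and J82 (-0.99), and in TCCSUP its value was 0.04 (adjusted p = 0.895). E2F8, a repressor E2F, fell in all 4 cell lines, with -2.58 in 253J, -0.81 in TCCSUP, -0.57 in RT112 and -0.51 in J82. E2F6, another repressor, rose in 253J (0.4), RT112 (0.48) and TCCSUP (0.42). RB1, the gene of the retinoblastoma protein, passed in 0 of the 4 cell lines by edgeR's test, also in 0 at an unadjusted p under 0.05 and in 0 by DESeq2, with log2 fold changes from 0.01 to 0.21.

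Among 7 CDK inhibitors, CDKN1A, which encodes p21, rose in 253J (1.29, adjusted p = 0.000472), J82 (3.41, adjusted p = 3.08e-07) and TCCSUP (2.21, adjusted p = 5.03e-06). In RT112 its value was 0.26 (adjusted p = 0.411), and the RT112 effect lay 2.04 below the mean of the other 3 on the log2 scale (difference -2.04, adjusted p = 0.000113). CDKN1C, encoding p57, rose in 253J (0.85), J82 (3.42) and RT112 (1.18) and gave -0.5 in TCCSUP (adjusted p = 0.103). CDKN2C, encoding p18, fell in all 4 cell lines, with values of -1.94 in 253J, -1.18 in RT112, -0.93 in TCCSUP and -0.43 in J82. CDKN2A, which encodes p16, had 0 counts in every 253J and RT112 library and fell in J82 (-1.18) and TCCSUP (-2.4). Of the 7, 4 were higher and 2 lower in 253J (28.8% and 22.4% of all tested genes), and 2 higher and 4 lower in TCCSUP (32% and 22.1%). J82 had 2 higher and 2 lower (24% and 18.5%), and RT112 2 higher and 1 lower (27.4% and 20.2%).

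Over the 16 libraries, the log2 CPM of the 10 genes moved together, with Pearson correlations between 0.548 (AURKB and MKI67) and 0.983 (AURKA and BUB1) and a median of 0.891 over 45 pairs. These correlations describe libraries that share cell lines and treatments. Centred within each cell line, they ran from 0.876 to 0.985. The 5 other genes closest to the mean profile of the 10 were KIF2C (r = 0.992), KIF23 (r = 0.99), HJURP (r = 0.988), CDCA8 (r = 0.984) and PRC1 (r = 0.984), over 16 libraries. They were picked by their levels in these same libraries, so the pattern of their log2 fold changes follows from that choice. KIF2C, a kinetochore kinesin, gave log2 fold changes of -2.96 in 253J, -1.44 in J82, -2.7 in TCCSUP and -0.53 in RT112 (adjusted p = 0.0941 in RT112). KIF23, a kinesin of the central spindle, gave -2.3, -1.3, -2.47 and, in RT112, -0.49 (adjusted p = 0.0329 in RT112). HJURP, the chaperone of the centromeric histone, gave -2.9 in 253J, -1.8 in J82, -2.69 in TCCSUP and -0.29 in RT112 (adjusted p = 0.28 in RT112). CDCA8, a subunit of the passenger complex that holds Aurora B, gave -2.11, -1.56, -2.17 and, in RT112, -0.47 (adjusted p = 0.101 in RT112). PRC1, which bundles midzone microtubules, gave -2.37, -1.11, -2.19 and, in RT112, -0.47 (adjusted p = 0.0824 in RT112).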

How the data were processed

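RNA was sequenced from 16 libraries of 4 bladder cancer cell lines, from stranded, ribosomal RNA-depleted total RNA. The authors deposited a table of raw read counts, whole numbers per gene symbol without normalisation, for 35993 symbols. The submitters' processing notes name HISAT2, StringTie and GRCh37, and the counting step is not given in the sources used here. RefSeq promoters (GRCh38.p14) were joined by symbol only.

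The 10 genes and all lists were chosen with earlier results of these data known. Low counts were removed with filterByExpr by group (21297 genes left), and counts were normalised by TMM and fitted with edgeR 4.0.16 (R 4.3.3) as 8 group means, with 8 residual degrees of freedom and a common biological coefficient of variation of 0.153. Quasi-likelihood tests were two-sided, with Benjamini-Hochberg adjustment over all tested genes within each contrast. Standard errors are the log2 fold change over the square root of F. Log2 CPM used a prior count of 2. The script was tested on simulated counts. The study's methods use DESeq2, run here as an alternative (1.42.0).

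Beside the 10 genes, those named are the 2 highest and 2 lowest of each list by mean log2 fold change, the 5 genes most correlated with the mean profile of the 10, and RHNO1. Other markers named (KRT8, KRT18, KRT19, UPK1A, UPK1B, UPK2, UPK3B and CD3E) were picked from the marker lists after their values were seen. The alternatives were other scalings, tools and filters, each cell line alone, the study's thresholds, the 7 abundant small noncoding RNA genes (9.58% to 13.2% of control and 10.2% to 21.3% of treated counts) left out, the replicate number as a block, and each library or target left out. Scaling by library size alone raised the median log2 fold change of all tested genes by 0.27 (253J), 0.31 (TCCSUP), 0.14 (J82) and 0.15 (RT112).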

Additional observations from a re-analysis of the deposited data

Results flagged for a closer look

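The effect of CM-1758 differed between the 4 cell lines for each of the 10 genes, by edgeR's quasi-likelihood F test of the 3 differences between cell lines, with Benjamini-Hochberg adjustment over all tested genes. The adjusted p was 0.00161 for FOXM1 and 0.0125 for MYBL2. Among the kinases it was 0.000564 for AURKA, 0.00579 for AURKB, 0.000145 for PLK1 and 4.07e-05 for BUB1. It was 0.000374 for CCNB1 and 0.000909 for CDC20, which act at entry to and exit from mitosis. For CENPF it was 4.35e-06, the smallest of the 10, and for MKI67 0.00333. The same test passed for 51.9% of all tested genes, so passing it is not particular to these genes. In each of the 10 genes the RT112 effect lay above that of every other cell line.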

How the results depend on the processing

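With 2 libraries a group, the spread was borrowed across genes and groups, and a group left with 1 library was assumed to vary like the others. Changes smaller than the shift between scalings depend on the scaling. Of 520 values of the 10 genes under the alternatives, 508 kept their direction and side of the threshold, 4 lost and 8 gained a call, and 0 reversed. The count of lower genes in RT112 (2) was 1 with library size alone, 5 with DESeq2 and 4 with edgeR on each cell line alone, 0 at the study's thresholds, where J82 had 2, and 1 to 4 with single libraries left out. Lost calls were MKI67 in J82 (DESeq2 on each cell line alone, adjusted p = 0.0704) and FOXM1 in RT112 (library size alone, -0.68, adjusted p = 0.0685, and without control or treated replicate 2). Over the 23 settings run, the RT112 effect lay above the mean of the other 3 cell lines for all 10 genes, by 1.15 (MYBL2) to 2.51 (PLK1). These settings reuse the same libraries, and the weak fall was known when the genes were grouped. They are therefore not independent evidence of it. The median of the 10 genes ranged from -2.84 to -2.11 in 253J, -2.58 to -2.17 in TCCSUP, -1.93 to -1.30 in J82 and -0.53 to -0.23 in RT112 with single libraries left out, and was -2.02 in TCCSUP with library size alone. The change of MYBL2 minus its targets was -1.35, -1.34, -1.2 and -1.22 in J82 without AURKB, PLK1, BUB1 and CENPF in turn, and -0.06, -0.11, 0.08 and 0.08 in TCCSUP without AURKB, PLK1, BUB1 and CDC20. Differences between control cell lines numbered 10 to 27 with single libraries left out, an alternative chosen after seeing the data. Of the 5 most alike genes, 3 were shared when levels were centred within cell lines. The median of the CDK inhibitors in J82 turned from -0.31 to 0.55 with at least 10 counts in every library, which tests fewer of them. For the other changes, the cause was not tested.

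Same-numbered libraries were not shown to pair, since the correlation of their deviations over all tested genes was 0.218 (J82), 0.0427 (RT112) and 0.0173 (TCCSUP), and 253J shares only replicate 3. With the replicate number as a block, which left 3 residual degrees of freedom, 10 genes were lower in 253J, J82 and TCCSUP and 3 in RT112, where AURKB was added (-0.74, adjusted p = 0.018), and the median in 253J was -2.76.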
